A study of Nothobranchius furzeri with 8 samples.

Results

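The nuclear alanine and glycine tRNAs of the killifish brain comprised 6 of the 49 nuclear anticodons counted, namely tRNA-Ala-AGC, tRNA-Ala-CGC, tRNA-Ala-TGC, tRNA-Gly-CCC, tRNA-Gly-GCC and tRNA-Gly-TCC. They were chosen by name, as every alanine or glycine tRNA not marked as mitochondrial, among 73 entries that also held the mitochondrial tRNAs and a bacterial control. At the level of transcripts, or clusters of transcripts too alike to separate, they made up 8 of 66 nuclear entries. The turquoise killifish Nothobranchius furzeri (strain MZM-0410 per the methods, which name it as the strain used unless stated otherwise) is a fish with a very short natural life, and tRNA was sequenced from individual whole brains of 4 young fish at 5 weeks after hatching and 4 old fish at 39 weeks, 2 males and 2 females at each age. No treatment or genetic change was applied, so the groups differed by age alone as far as the labels say. A whole brain mixes neurons, glia and other cells, and a change in cell makeup cannot be told apart from a change within cells. The tables held tRNA only, so the tissue could not be checked against marker genes.

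Alanine and glycine have the smallest side chains of the amino acids, and each is encoded by a box of codons that differ only in the last base. In tRNA-Ala-AGC the first base of the anticodon is deaminated to inosine, which lets it read GCU, GCC and GCA, whereas tRNA-Ala-TGC reads GCA and GCG and tRNA-Ala-CGC reads GCG. tRNA-Gly-GCC reads GGC and GGU, tRNA-Gly-TCC reads GGA and GGG, and tRNA-Gly-CCC reads GGG. Both amino acids are attached to their tRNAs by class II synthetases. Alanyl-tRNA synthetase recognizes a G·U wobble pair in the acceptor stem and comes in separate cytosolic (AARS1) and mitochondrial (AARS2) forms, and in humans a single gene, GARS1, supplies glycyl-tRNA synthetase to both compartments. Human mutations in AARS1 and GARS1 cause Charcot-Marie-Tooth disease, a neuropathy of peripheral nerves. The amino acid sits on the last adenosine of the CCA tail. Chemical oxidation followed by β-elimination removes that adenosine from tRNAs that carried no amino acid, so a read ending in CCA stood for a charged tRNA and a read ending in CC for an uncharged one.

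The 8 libraries held 717858 to 3112101 reads, of which 89.48% to 91.46% were from nuclear tRNAs. Young male 2 was the shallowest library. Alanine tRNAs had 42032 to 174056 reads per brain and glycine tRNAs 59087 to 239489, and no anticodon of either had fewer than 4940 reads in any brain. A synthetic bacterial tRNA-Lys, added as a mixture of CCA and CC ends in a 3:1 ratio, read 76.8% to 77.6% CCA in young and 77.6% to 80.3% in old brains, and the highest value was that of old female 1, the brain with the lowest share of charged alanine and glycine tRNAs. By the methods it was added after oxidation and β-elimination, so it covers only the later library steps.

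Read number did not follow gene number among these tRNAs. Gene numbers were read from a column of the authors' table headed size, which was taken as the number of genes per anticodon, and every value per gene rests on that reading. Whether reads are recovered equally from different tRNAs was not tested. Abundance here means read share, which is not calibrated between tRNAs. The 3 alanine anticodons were backed by 26 genes, 9.00% of the 289 nuclear tRNA genes, but gave 6.73% of nuclear reads, whereas the 15 glycine genes were 5.19% of genes and gave 8.54% of reads. tRNA-Gly-GCC, with 3 genes, had a read share of 1.33% of nuclear reads per gene, the highest of the 49 anticodons. tRNA-Ala-TGC, with 13 genes, had 0.121% per gene and ranked 47 of 49.

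The same contrast was present within each amino acid. tRNA-Ala-TGC was 2nd in gene number and 28th in reads, while tRNA-Ala-AGC, the inosine-bearing alanine tRNA, had 9 genes and was 3rd in reads at 0.494% of nuclear reads per gene. tRNA-Ala-CGC had 4 genes and 0.177% per gene, rank 43. Among the glycine tRNAs, tRNA-Gly-CCC had 2 genes and 0.734% per gene, rank 4, and tRNA-Gly-TCC had 10 genes and 0.309% per gene, which was the median of all anticodons. A gene of tRNA-Gly-GCC thus carried 9.23 to 13.0 times the reads of a gene of tRNA-Ala-TGC across the 8 brains, 3.95 to 4.77 times those of a gene of tRNA-Gly-TCC, and tRNA-Ala-AGC carried 3.65 to 4.47 times the reads per gene of tRNA-Ala-TGC. Across all 49 anticodons gene number and read share correlated at a Pearson's r of 0.59 in young and 0.56 in old brains (Spearman's rho 0.73 and 0.72), and across these 6 at 0.13 and 0.16. The correlations are given as descriptions, since the anticodons share the same libraries. The tRNA entries carry the strain name GRZ of the reference set, not that of the fish, and which of the genes were active was not measured.

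**Figure D1:**
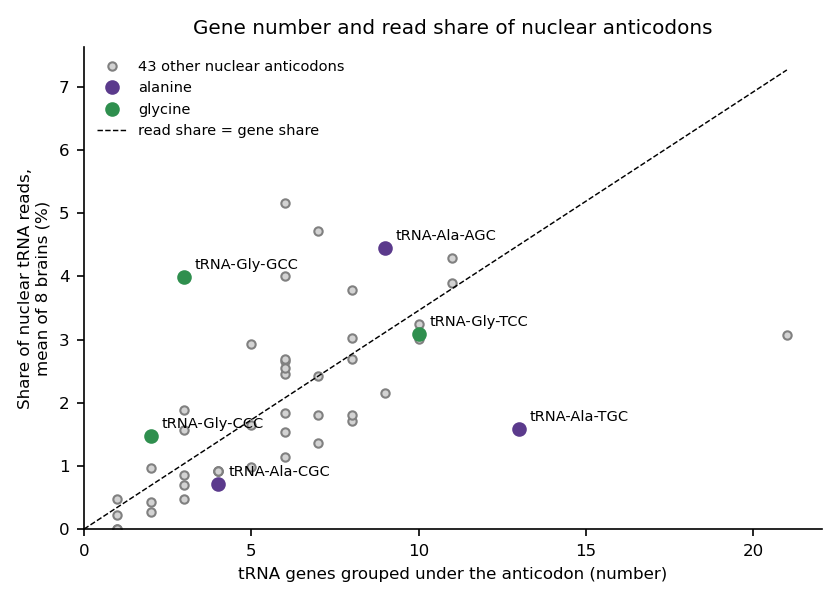
Number of genes (x axis) against the mean share of nuclear tRNA reads over 8 brains (y axis, %) for the 49 nuclear anticodons, with alanine in purple and glycine in green. The dashed line is where read share equals gene share. tRNA-Gly-GCC (3 genes) lies far above the line and tRNA-Ala-TGC (13 genes) far below it.

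None of the 6 anticodons had a read share that differed between young and old brains beyond the spread, and the log2 changes lay between -0.15 and 0.03. The share of tRNA-Ala-AGC among nuclear reads was 4.58%, 4.05%, 4.45% and 4.63% in young male 1, male 2, female 1 and female 2, and 4.79%, 4.76%, 4.42% and 3.91% in the old brains in the same order. Old female 2 had the lowest value and old male 1 the highest, so the old brains spanned the whole young range. The log2 change from young to old was 0.01 ± 0.07 (SE, n = 4 per age; edgeR quasi-likelihood adjusted p = 0.875). tRNA-Ala-TGC took 1.56% ± 0.06 and 1.59% ± 0.07 (SD), a log2 difference of 0.03 ± 0.06 (SE, edgeR adjusted p = 0.767).

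tRNA-Ala-CGC, the rarest of the 6, had the largest estimate. It took 0.805%, 0.752%, 0.714% and 0.709% of nuclear reads in the young brains and 0.685%, 0.669%, 0.593% and 0.740% in the old. All 4 old brains lay below the young mean, and old female 2 lay within the young range. The log2 change was -0.15 ± 0.08 (SE), with an edgeR adjusted p of 0.256.

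tRNA-Gly-GCC, the most abundant glycine tRNA, took 3.76%, 4.25%, 4.47% and 4.07% of nuclear reads in young and 4.22%, 3.60%, 3.58% and 3.96% in old brains. Old male 1 was high and old male 2 and old female 1 were low, and the log2 change was -0.11 ± 0.07 (SE, edgeR adjusted p = 0.332). tRNA-Gly-TCC took 3.08%, 3.40%, 3.12% and 3.14% in young and 3.11%, 2.89%, 3.03% and 2.94% in old brains. All 4 old values were below the young mean, but old male 1 exceeded young male 1, and the log2 change was -0.09 ± 0.05 (SE, edgeR adjusted p = 0.292). tRNA-Gly-CCC, at 1.46% ± 0.07 in young and 1.48% ± 0.12 in old fish (SD), differed by 0.02 on the log2 scale (edgeR adjusted p = 0.837).

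None of the 6 passed the test of abundance, where 6.38% of the 47 nuclear anticodons tested passed it, and none had an unadjusted p below 0.05, where 19.1% of all did. In each of the 6 the young and old read shares overlapped, against 17.0% of all anticodons with no overlap. Summed over anticodons, alanine tRNAs took 6.73% ± 0.26 of nuclear reads in young and 6.73% ± 0.40 in old fish (SD, n = 4; exact permutation p = 1, two-sided). Glycine tRNAs took 8.77% ± 0.35 and 8.31% ± 0.45 (difference -0.46 percentage points, exact permutation p = 0.171), and the ratio of glycine to alanine reads was 1.31 ± 0.10 in young and 1.24 ± 0.11 in old (exact permutation p = 0.371). With 4 fish per age, the smallest p this exact test can give is 0.0286.

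**Figure D2:**
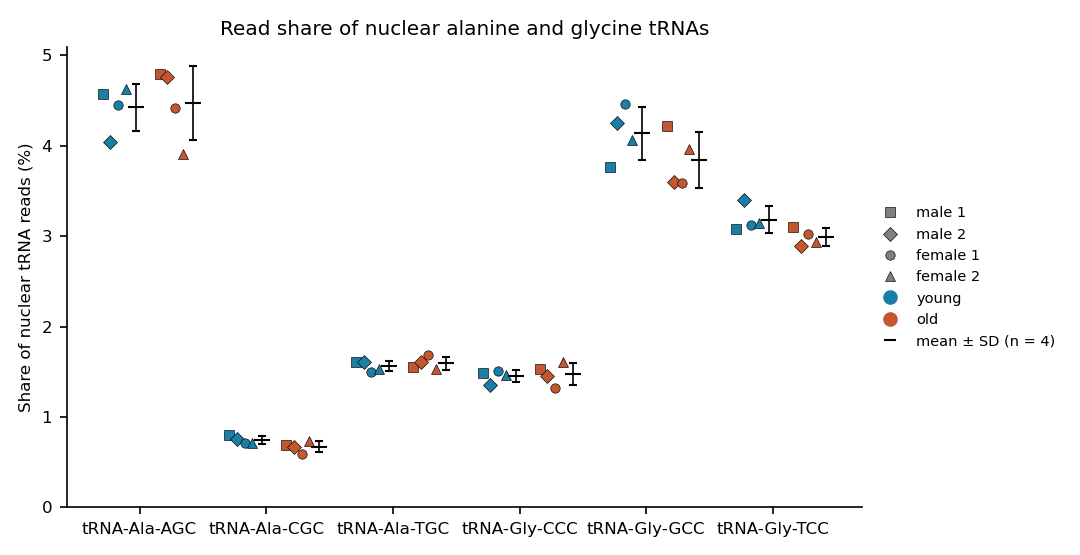
Share of nuclear tRNA reads (y axis, %) of each of the 6 anticodons in every brain, young in blue and old in orange, with the symbol giving sex and replicate and the black mark the mean ± SD (n = 4). Young and old brains overlap for all 6 anticodons.

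The balance among tRNAs of the same amino acid differed by at most 1.20 percentage points between the ages. Of alanine reads, tRNA-Ala-AGC made up 65.7% ± 1.8 in young and 66.3% ± 2.2 in old brains, tRNA-Ala-TGC 23.2% ± 1.3 and 23.7% ± 1.5, and tRNA-Ala-CGC 11.1% ± 0.7 and 10.02% ± 1.35 (SD, n = 4). Of glycine reads, tRNA-Gly-GCC made up 47.1% ± 1.6 and 46.2% ± 1.2, tRNA-Gly-TCC 36.3% ± 1.5 and 36.0% ± 1.6, and tRNA-Gly-CCC 16.6% ± 1.2 and 17.8% ± 1.0. The order of the 3 anticodons was the same at both ages for each amino acid. The share of tRNA-Gly-CCC was above the young mean in 4 of 4 old brains, by 1.20 percentage points on average, with an exact permutation p of 0.171, and that of tRNA-Ala-CGC was lower by a mean difference of -1.06 points (exact permutation p = 0.2). Adjusted over the 6 shares, exact permutation p ranged from 0.6 to 0.886.

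Within an anticodon, 2 pairs of entries were counted apart, although such transcripts are alike in sequence and reads can be divided imperfectly between them. tRNA-Ala-AGC split into the merged cluster Ala-AGC-1/4 and the transcript Ala-AGC-3, which took 30.6%, 20.1%, 29.0% and 30.0% of the anticodon's reads in the young brains and 27.8%, 31.6%, 19.4% and 19.8% in the old. Young male 2 and both old females were low and the other 5 brains lay close together, so low values occurred at both ages. The spread of 12.2 points was the second widest of the 18 anticodons with more than 1 entry, behind 20.9 points for Val-AAC. The mean share was 27.4% ± 4.9 in young and 24.6% ± 6.0 in old (SD, exact permutation p = 0.486). tRNA-Gly-GCC split more evenly from brain to brain, with Gly-GCC-2 taking 25.3% to 29.2% of its reads. tRNA-Ala-CGC, tRNA-Ala-TGC, tRNA-Gly-CCC and tRNA-Gly-TCC were each represented by 1 entry, so no such split could be read for them.

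The charged share, the percentage of reads ending in CCA among those ending in CCA or CC, was lower on average in old brains for both amino acids, with old female 2 as the exception. For alanine it was 74.7%, 65.2%, 72.8% and 67.1% in young and 58.8%, 59.2%, 45.2% and 71.6% in old brains, in the order male 1, male 2, female 1, female 2. For glycine it was 68.9%, 58.4%, 66.8% and 60.2% in young and 49.8%, 50.8%, 39.8% and 64.9% in old. Old female 1 was the lowest brain for both and old female 2 lay inside the young range for both, while the other old brains lay below every young brain. The means were 69.9% ± 4.5 and 58.7% ± 10.8 for alanine (difference -11.2 percentage points, exact permutation p = 0.0857) and 63.6% ± 5.1 and 51.3% ± 10.3 for glycine (difference -12.2 points, exact permutation p = 0.0857; SD, n = 4). Without old female 2 the differences were -15.5 and -16.8 points, each with an exact permutation p of 0.0286, the smallest that 4 against 3 brains allow. Without old female 1 they were -6.72 and -8.40 points (exact permutation p = 0.171 and 0.143).

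By anticodon, the odds of a CCA over a CC end differed between old and young on the log2 scale by -0.72 ± 0.36 for tRNA-Ala-AGC, -0.57 ± 0.37 for tRNA-Ala-CGC and -0.69 ± 0.39 for tRNA-Ala-TGC (SE, n = 4 per age). They differed by -0.71 ± 0.39 for tRNA-Gly-CCC, -0.73 ± 0.36 for tRNA-Gly-GCC and -0.77 ± 0.37 for tRNA-Gly-TCC. All 6 estimates were negative, as were those of all 47 nuclear anticodons tested. None of the 6 passed the edgeR test, where 2.13% of all 47 anticodons did. The edgeR adjusted p was 0.166 for tRNA-Ala-CGC and 0.123 for each of the others. Without old female 1 the estimates were -0.45 for tRNA-Ala-AGC, -0.34 for tRNA-Ala-CGC, -0.42 for tRNA-Ala-TGC, -0.44 for tRNA-Gly-CCC, -0.54 for tRNA-Gly-GCC and -0.52 for tRNA-Gly-TCC (edgeR adjusted p 0.354 to 0.3995). Of the 6, tRNA-Ala-AGC, tRNA-Gly-GCC and tRNA-Gly-TCC had an unadjusted p below 0.05, against 38.3% of all anticodons. The young and old charged shares overlapped in each of the 6, and did not overlap in 2.13% of all.

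The difference with age in these tRNAs was set beside that of the nuclear tRNAs at large. The median change in log2 odds was -0.71 over the 6 and -0.69 over all 47. Without old female 2 all 6 passed the edgeR test, where 80.9% of the anticodons did, and the median was -0.98 against -0.85 over all. Relative to the median anticodon of the same brain, the log2 odds of alanine were 0.25 ± 0.06 in young and 0.24 ± 0.21 in the old ones (SD, exact permutation p = 0.943), and those of glycine -0.16 ± 0.06 and -0.21 ± 0.18 (exact permutation p = 0.686). The other tRNAs served by class II synthetases, 17 of 18 anticodons with enough reads, had a median change of -0.60, and 0 of the 17 passed the edgeR test, although 5 had an unadjusted p below 0.05. Without old female 2 their median was -0.74, all 17 estimates were below 0, and 11 of the 17 passed the edgeR test. In abundance, 1 of these 17 passed the edgeR test with a rise (His-GTG, log2 change 0.21) and 1 with a fall (Lys-CTT, -0.18).

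**Figure D3:**
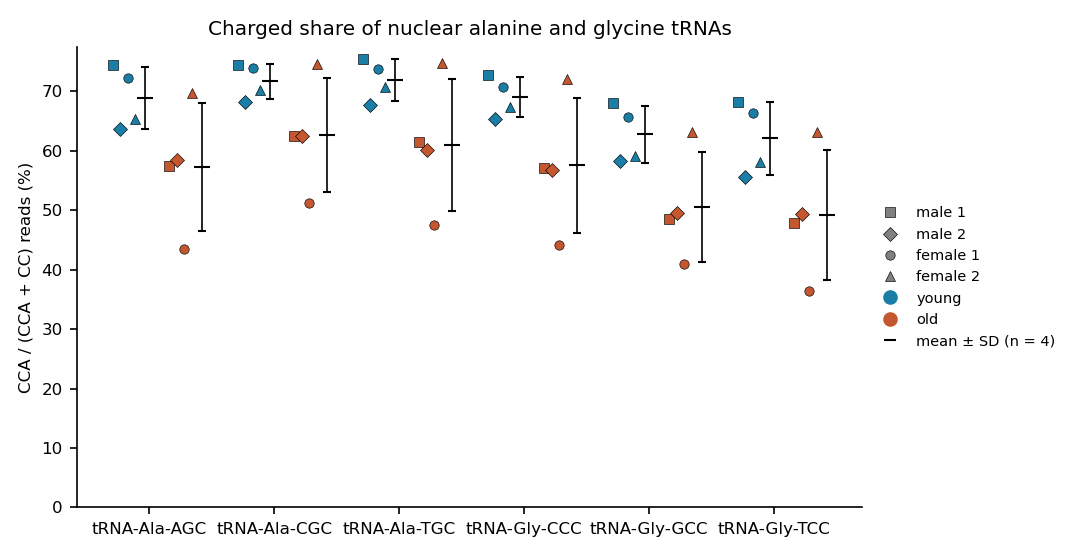
Charged share (y axis, reads ending in CCA as % of reads ending in CCA or CC) of the 6 anticodons in every brain, young in blue and old in orange, with the black mark the mean ± SD (n = 4). In each anticodon old female 1 is the lowest brain and old female 2 lies above 2 or more of the young brains.

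Charging was also compared between tRNAs of the same brain. How many pairs among all nuclear anticodons differ in the same direction in all 8 brains was not counted. The gaps below are therefore not shown to be particular to alanine and glycine tRNAs. Summed over their anticodons, glycine tRNAs read lower than alanine tRNAs in 8 of 8 brains. This did not hold for every pair of anticodons. The mean charged share of tRNA-Gly-CCC was 69.1% in young and 57.6% in old brains, against 68.9% and 57.3% for tRNA-Ala-AGC. It was below the means of tRNA-Ala-CGC and tRNA-Ala-TGC at both ages. The log2 odds of glycine minus alanine were -0.41, -0.42, -0.41 and -0.43 in young brains and -0.52, -0.49, -0.32 and -0.45 in old. The young values had an SD of 0.01, while the old ones spread on both sides of them. The mean over the 8 brains was -0.43 ± 0.06 (SD; exact sign-flip p = 0.0078, two-sided, the smallest that 8 brains can give), and its change with age was -0.03 (exact permutation p = 0.514).

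The tRNAs of the same amino acid also differed in charged share. The single control tRNA was added after the chemistry, so whether tRNA sequences differ in oxidation, β-elimination or library recovery was not tested. That limit holds for every comparison of charging between different tRNAs given here. The GGG reader tRNA-Gly-CCC was more charged than both of the other glycine tRNAs in all 8 brains, at 69.1% ± 3.3 in young and 57.6% ± 11.4 in old brains against 62.8% ± 4.8 and 50.5% ± 9.3 for tRNA-Gly-GCC and 62.1% ± 6.1 and 49.2% ± 10.96 for tRNA-Gly-TCC (SD, n = 4). Its log2 odds exceeded those of tRNA-Gly-GCC by 0.42 ± 0.13 and those of tRNA-Gly-TCC by 0.48 ± 0.12 (SD over 8 brains; exact sign-flip p adjusted over 6 pairs = 0.0156 for each). tRNA-Gly-GCC and tRNA-Gly-TCC were 0.06 ± 0.11 apart, higher for tRNA-Gly-GCC in 6 of 8 brains (adjusted exact sign-flip p = 0.206).

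Among the alanine tRNAs the most abundant, tRNA-Ala-AGC, was the least charged, at 68.9% ± 5.2 in young and 57.3% ± 10.8 in old brains. tRNA-Ala-CGC stood at 71.7% ± 2.9 and 62.7% ± 9.5 and tRNA-Ala-TGC at 71.9% ± 3.5 and 61.0% ± 11.1 (SD, n = 4). The log2 odds of tRNA-Ala-AGC lay below those of tRNA-Ala-TGC in 8 of 8 brains, by a mean difference of -0.22 ± 0.11 (SD, exact sign-flip p adjusted over 6 pairs = 0.0156). They were below those of tRNA-Ala-CGC in all but young male 1, where the 2 were level, with a mean difference of -0.26 ± 0.14 (adjusted exact sign-flip p = 0.0234). tRNA-Ala-CGC and tRNA-Ala-TGC were 0.04 ± 0.10 apart (adjusted exact sign-flip p = 0.289). None of the 6 pairs had a gap that changed with age beyond the spread between brains (exact permutation p adjusted over 6, 0.514 to 0.8286).

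The 2 entries of tRNA-Ala-AGC did not read equally charged. Ala-AGC-3 read below Ala-AGC-1/4 in 8 of 8 brains, with charged shares of 66.1% ± 6.8 against 69.9% ± 4.9 in young and 53.0% ± 10.7 against 58.7% ± 10.9 in old fish (SD, n = 4). The mean difference in log2 odds was -0.29 ± 0.09 (SD, exact sign-flip p = 0.0078, unadjusted). Reads can be divided imperfectly between such entries, so the gap is given as a description. The 2 entries of tRNA-Gly-GCC differed by -0.03 ± 0.04, below 0 in 6 of 8 brains (exact sign-flip p = 0.0312, unadjusted, with 2 such pairs tested).

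**Figure D4:**
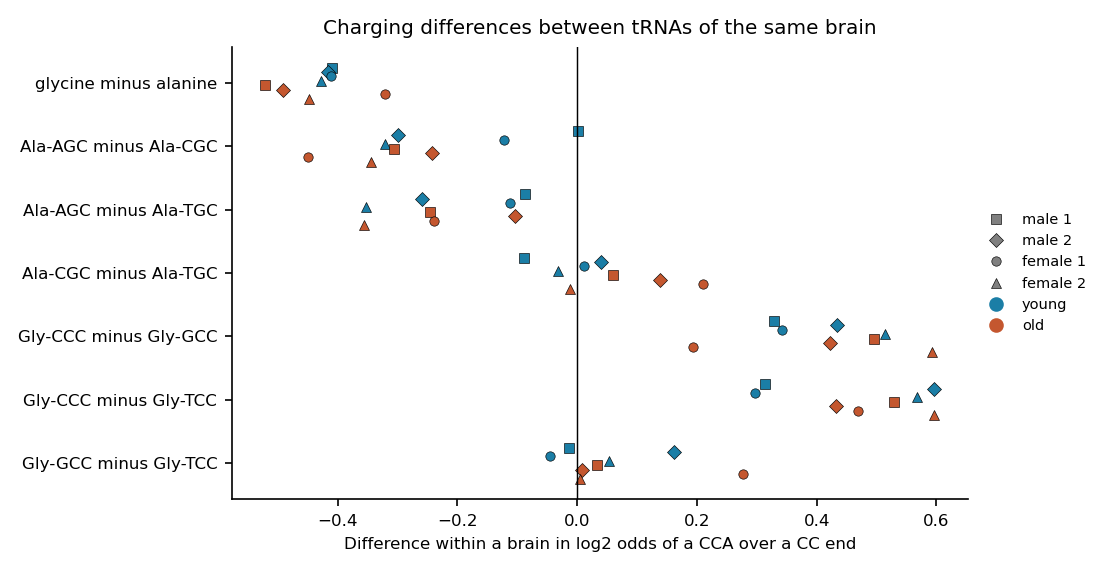
Difference in log2 odds of a CCA over a CC end between tRNAs of the same brain (x axis), one row per pair, with young brains in blue and old in orange. Glycine summed over its anticodons lies below alanine summed likewise, tRNA-Gly-CCC above both other glycine tRNAs and tRNA-Ala-AGC below tRNA-Ala-TGC in every brain.

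In rank among the 47 nuclear anticodons, from the most charged down, tRNA-Ala-TGC was at 6 in young and 10 in old brains and tRNA-Ala-CGC at 7 in both. tRNA-Gly-CCC was at 15 and 21 and tRNA-Ala-AGC at 17 and 22. tRNA-Gly-GCC was at 30 and 31 and tRNA-Gly-TCC at 32 and 35. Neighbors such as tRNA-Gly-GCC and tRNA-Gly-TCC, or tRNA-Ala-CGC and tRNA-Ala-TGC, were not separated by the within-brain tests above.

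Glycine is also carried by a mitochondrial tRNA, encoded in the mitochondrial genome. The charged share of mitochondrial tRNA-Gly-TCC was 76.3%, 68.9%, 74.9% and 67.7% in young and 74.5%, 68.4%, 79.7% and 77.8% in old brains, from 2403 to 9641 reads ending in CCA or CC. The ages overlapped (exact permutation p = 0.343), and old female 1, the lowest brain for nuclear glycine, was the highest for this tRNA. The log2 odds of nuclear minus mitochondrial glycine were -0.54, -0.66, -0.57 and -0.47 in young and -1.56, -1.06, -2.57 and -0.93 in old brains. The 2 ages did not overlap, and the mean difference between them was -0.97 (exact permutation p = 0.0286, 4 of 4 old brains below the young). Against the same mitochondrial tRNA, 68.1% of all nuclear anticodons had young and old brains that did not overlap. Without old female 1 the mean difference was -0.62. Leaving out any 1 young brain gave an exact permutation p of 0.0857, and pairing brains of the same sex and number an exact sign-flip p of 0.125, the smallest that 4 pairs allow. Mitochondrial tRNA-Ala-TGC had only 12 to 52 reads ending in CCA or CC per brain, too few to set beside the nuclear alanine tRNAs.

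**Figure D5:**
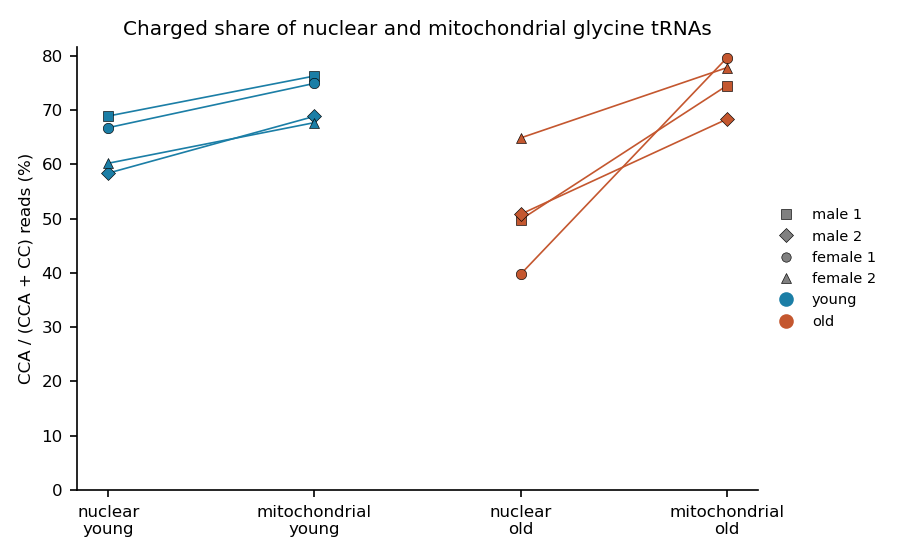
Charged share (y axis, reads ending in CCA as % of reads ending in CCA or CC) of nuclear glycine tRNAs and of mitochondrial tRNA-Gly-TCC, with a line joining the values of a brain. The lines of the old brains (orange) are steeper than those of the young brains (blue), most of all that of old female 1.

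Some reads ended before the CC, in C alone or with no part of the tail (Absent), and these are outside the charged share. Glycine tRNAs ended in C in 5.29%, 9.91%, 6.83% and 10.4% of reads in young and 15.5%, 14.3%, 28.2% and 7.10% in old brains, and alanine tRNAs in 2.998%, 6.43%, 4.06% and 6.99% and in 9.27%, 9.25%, 22.9% and 4.37%. Old female 1 was highest and old female 2 lay among the young brains. Over all nuclear tRNAs the C share was 7.25% ± 2.00 in young brains and 14.0% ± 7.5 in old (SD, n = 4). Neither alanine (means 5.12% and 11.5%) nor glycine (8.11% and 16.3%) differed by age beyond the spread (exact permutation p = 0.0857 for each).

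Glycine tRNAs had more C ends than alanine tRNAs in 8 of 8 brains, by 3.91 ± 1.42 percentage points, and fewer Absent ends in 8 of 8, with a mean difference of -0.62 ± 0.37 points (SD; exact sign-flip p = 0.0078 for each). From the highest mean C share down, tRNA-Gly-TCC, tRNA-Gly-GCC and tRNA-Gly-CCC ranked 12, 15 and 20 of 47 nuclear anticodons. tRNA-Ala-TGC, tRNA-Ala-AGC and tRNA-Ala-CGC ranked 27, 28 and 34. These gaps are not shown to be particular to alanine and glycine tRNAs. Absent ends were 0.603% ± 0.123 of glycine reads in young and 1.28% ± 0.63 in old brains, with no overlap (exact permutation p = 0.0286), a pattern shared by 40.4% of all nuclear anticodons. For alanine they were 1.05% ± 0.25 and 2.08% ± 1.08 (exact permutation p = 0.0571). With all 4 ends in the denominator, CCA ends made up 65.7% ± 5.7 and 51.5% ± 14.1 of alanine reads and 58.1% ± 6.2 and 43.0% ± 13.2 of glycine reads (exact permutation p = 0.0857 for each). Whether C and Absent ends arose in the brain or during extraction and library preparation was not tested.

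Read share, charged share and the C and Absent ends together set the part of the charged tRNA pool that an amino acid holds. Alanine tRNAs made up 7.51% ± 0.30 of nuclear reads ending in CCA in young and 7.60% ± 0.55 in old brains (exact permutation p = 0.771), and glycine tRNAs 8.69% ± 0.38 and 7.84% ± 0.84 (exact permutation p = 0.171; SD, n = 4). tRNA-Gly-TCC took 3.01%, 3.09%, 3.11% and 2.98% of this pool in young and 2.80%, 2.52%, 2.43% and 2.91% in old brains. All 4 old brains lay below all 4 young ones, with a mean difference of -0.38 percentage points (exact permutation p = 0.0286, 0.171 adjusted over the 6 anticodons). Leaving out any 1 young brain gave an exact permutation p of 0.0571. A lack of overlap was found for 14.9% of all anticodons. The other 5 of these tRNAs overlapped between ages in their share of the pool.

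After removal of the median of each brain, the charging of alanine tRNAs across the 8 brains was most like that of Val-TAC (Pearson's r = 0.92), Gly-CCC (0.91) and Gly-TCC (0.91), and that of glycine tRNAs most like Ile-AAT (0.97), Lys-TTT (0.91) and Ala-TGC (0.88). These are the highest of 44 correlations for each amino acid over the same libraries and are given as a description.

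The difference with age was also read within each sex, from 2 fish per age. The charged share of alanine differed between old and young by -10.9 percentage points in males and -11.5 in females, and that of glycine by -13.3 and -11.2 (exact permutation p of the difference between sexes 0.944 and 1, within 36 relabellings whose smallest p is 0.0556). The read share of alanine tRNAs differed by 0.33 points in males and -0.33 in females (exact permutation p = 0.167).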

How the data were processed

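Total RNA from the 8 brains was oxidized and β-eliminated, size-selected and ligated to barcoded adapters by the authors, who trimmed reads with cutadapt 3.5 and counted them with mim-tRNAseq 1.3.8. The deposited tables hold raw read counts per anticodon, with the other column, size, taken here as genes per anticodon, and read counts per transcript or cluster and 3′ end, without molecular identifiers, so intervals cover counting error only (95% Wilson half-widths were at most 1.34 percentage points for a charged share). The file header gives a cluster identity of 0.97 and the methods another, which affects which transcripts were merged. Nuclear anticodons with at least 10 counts in 4 samples (abundance) or 100 CCA plus CC reads in every sample (charging) were fitted with edgeR 4.0.16 (R 4.3.3, quasi-likelihood, Benjamini-Hochberg, threshold 0.05). Abundance counts were scaled by TMM, and charging counts by the CCA plus CC total of each brain. For charging, the fit took each brain's pair of CCA and CC counts and a separate term for every brain. Log2 odds had 0.5 added. Single values were tested with two-sided exact permutation (70 relabellings) or sign-flip tests (256 patterns) in Python 3.11.15. The scripts were tested on simulated data. DESeq2 1.42.0, limma 3.58.1, other filters, denominators and replicate blocks were alternatives. All 6 anticodons and each of their transcripts are named. The members, lists and tests were chosen with earlier results of these data known, and the pairwise gaps between anticodons or transcripts, the mitochondrial contrast and the charged pool were added after values were seen. Replicates were separate fish.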

Additional observations from a re-analysis of the deposited data

Results flagged for a closer look

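Of 66 groups of 4 brains examined, 1 held a brain far from the other 3. The share of Ala-AGC-3 among tRNA-Ala-AGC reads was 20.05% in young male 2, the shallowest library, against 28.99% to 30.58% in the other young brains. Chance alone marks about 1 in 20 such groups. In the old brains the share was 27.78%, 31.61%, 19.38% and 19.77% (male 1, male 2, female 1, female 2). The libraries of old female 1 and old female 2 held 2636616 and 3112101 reads. Whether depth played a part was not tested.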

How the results depend on the processing

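Most results kept their direction and side of the threshold: 34 of 41 values of the main comparisons and 83 of 88 values of single anticodons did so under settings other than leaving out a brain. With a brain left out, 69 of 96 values of the main comparisons and 176 of 192 values of single anticodons did so. The number of nuclear anticodons called in abundance was 3, against 6 with DESeq2, 1 with the replicate block and 0 to 8 with a brain left out. With mitochondrial anticodons in the fit 16 were called. That count takes in mitochondrial as well as nuclear anticodons, so it cannot be set beside the others. The number called in charging was 1, against 0 with the replicate block and 0 to 38 with a brain left out. With mitochondrial anticodons in the fit, the log2 changes of tRNA-Ala-AGC, tRNA-Ala-TGC and tRNA-Gly-CCC turned to -0.013, -3.8e-05 and -0.0055. The age difference of the alanine read share turned from 0.0032 to -0.048 percentage points with mitochondrial reads in the denominator. As a log2 ratio to the most abundant glycine tRNA, the share of tRNA-Gly-TCC changed by 0.017 in place of -0.27 percentage points. With one brain left out, the age difference ran from -15.5 to -6.72 percentage points for the charged share of alanine and from -16.8 to -8.40 for glycine, with the lowest values without old female 2 and the highest without old female 1. It ran from -0.11 to 0.19 points for the alanine read share, from -0.26 to 1.58 points for tRNA-Ala-AGC among alanine reads and from -0.98 to 0.22 points for tRNA-Gly-TCC among glycine reads. The log2 changes in abundance ran from -0.022 to 0.074 for tRNA-Ala-AGC and from -0.017 to 0.074 for tRNA-Gly-CCC, and the log2 odds relative to the median anticodon from -0.088 to 0.048 for alanine and from -0.12 to 0.030 for glycine. None of these passed the threshold at either end except the charged shares without old female 2. For the alternatives chosen after seeing the data, the nuclear minus mitochondrial glycine difference ran from -1.17 (without old female 2) to -0.62 (without old female 1), and the share of tRNA-Gly-TCC in the charged pool from -0.46 to -0.30 percentage points, and leaving out any young brain took the exact permutation p of each past 0.05 (at most 0.0857 and 0.0571). With CCA set against all other ends, the gap between tRNA-Ala-CGC and tRNA-Ala-TGC was 0.11 (exact sign-flip p = 0.0312). The replicate block pairs brains of the same sex and number. Under it the nuclear minus mitochondrial glycine difference stayed at -0.97. The age difference of tRNA-Gly-TCC in the charged pool stayed at -0.38 percentage points. Both had the smallest exact sign-flip p that 4 pairs allow, 0.125. Deviations of same-numbered brains from their group means correlated at -0.28, -0.18, -0.17 and 0.79 for charging and at 0.20, 0.03, 0.09 and -0.37 for read share (male 1, male 2, female 1, female 2), so female 2 alone deviated together in charging, and the numbers were not taken as pairs. The causes were not tested. Each of the 6 anticodons had at least 4940 reads in every brain, and the 4 fish per age, more than depth, limit these tests.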
